A study of Mus musculus with 16 samples.

Results

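The genes described here are 10 immediate early genes, Fos, Fosb, Jun, Junb, Jund, Egr1, Atf3, Ier2, Btg2 and Zfp36, taken by symbol from the 30389 genes listed across the deposited single-cell tables. They were followed through the cell classes of the neocortex in WT (wild-type) and THY-Tau22 littermates, all aged 17 months and none treated. THY-Tau22 mice are heterozygous for a mutant human tau transgene under a Thy1 promoter, which is active in neurons, on a C57Bl6/J background. Each library held cells of the neocortex of a single hemisphere of 1 mouse, released with an enzymatic dissociation kit and profiled by Drop-seq, a droplet method that counts mRNA molecules by unique molecular identifiers (UMIs) read at the 3′ end. By their labels, 8 tables were of males (4 WT, 4 THY-Tau22) and the rest were of 3 WT and 5 THY-Tau22 females.

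Immediate early genes are transcribed within minutes of a stimulus, without the need for newly made protein, and most of their mRNAs decay quickly. Fos and Fosb proteins pair with Jun, Junb or Jund to form the transcription factor AP-1, and Atf3 is a related stress-induced factor. Egr1 is a zinc-finger factor widely used as a marker of neuronal activity, Btg2 restrains proliferation, and Zfp36 (tristetraprolin) speeds the decay of cytokine mRNAs. Enzymatic dissociation of fresh tissue can itself induce these genes. No library made without that step was analysed here, so the part of dissociation in the levels below was not tested.

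The promoters of such genes can carry the CRE, bound by CREB and read here by its core TGACG, and the CArG box, bound by SRF. A window of 250 bases before the annotated RefSeq start (GRCm38.p6) was searched for 8 of the 10 genes. Egr1 and Ier2 were not searched, so the counts of motifs leave them out. Sites beyond 250 bases were not searched either, so a window without a motif does not show a promoter without it. Searched on both strands, 5 of the 8 windows held a CRE core and 1 held a CArG box, while 17.8% and 1.47% of 32851 promoter windows of this length held them. The AP-1 motif TGANTCA was in 0 of the 8 and in 6.75% of all windows. The windows of 5 genes are printed because their mRNA levels are compared further on: Fos and Fosb, which varied together across libraries, Junb and Zfp36, the most closely correlated pair, and Jund, which varied with neither. Capitals mark the CRE cores (CGTCA where the match is on the opposite strand) and the CArG box. Each sequence runs 5′ to 3′ on the strand of its gene and ends at the base before the start.
Fos, chr12:85473640-85473889, + strand: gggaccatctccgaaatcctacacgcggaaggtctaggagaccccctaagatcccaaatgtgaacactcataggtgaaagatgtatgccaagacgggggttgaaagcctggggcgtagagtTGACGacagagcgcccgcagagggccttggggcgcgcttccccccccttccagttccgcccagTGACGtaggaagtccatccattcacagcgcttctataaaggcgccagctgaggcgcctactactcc
Fosb, chr7:19310046-19310295, - strand: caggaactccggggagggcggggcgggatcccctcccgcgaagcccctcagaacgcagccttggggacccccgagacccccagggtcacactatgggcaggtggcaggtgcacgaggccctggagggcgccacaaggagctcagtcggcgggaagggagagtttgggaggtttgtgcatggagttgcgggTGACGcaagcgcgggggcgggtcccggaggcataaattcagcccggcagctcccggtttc
Junb, chr8:84978749-84978998, - strand: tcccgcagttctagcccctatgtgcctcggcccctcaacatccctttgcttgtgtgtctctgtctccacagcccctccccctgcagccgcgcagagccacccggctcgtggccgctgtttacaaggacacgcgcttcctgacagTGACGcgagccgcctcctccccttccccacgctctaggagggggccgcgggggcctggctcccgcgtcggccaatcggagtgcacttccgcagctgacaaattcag
Zfp36, chr7:28379229-28379478, - strand: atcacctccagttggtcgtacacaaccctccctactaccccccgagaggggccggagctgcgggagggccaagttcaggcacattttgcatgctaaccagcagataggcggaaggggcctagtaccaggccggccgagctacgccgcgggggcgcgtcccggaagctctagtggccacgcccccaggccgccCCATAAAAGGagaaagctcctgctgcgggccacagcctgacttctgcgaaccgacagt
Jund, chr8:70697489-70697738, + strand: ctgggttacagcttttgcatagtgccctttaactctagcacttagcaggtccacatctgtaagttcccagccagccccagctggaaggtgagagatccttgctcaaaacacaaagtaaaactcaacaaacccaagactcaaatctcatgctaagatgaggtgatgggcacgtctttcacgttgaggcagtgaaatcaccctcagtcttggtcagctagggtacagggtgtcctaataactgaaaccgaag
The Fos window held 2 CRE cores, the nearer one 66 to 62 bases before the start, and a TATAAA match 33 to 28 bases before it (12.4% of all windows held that motif). The core of Fosb lay 60 to 56 bases and that of Junb 106 to 102 bases before the start. Zfp36 had the CArG box, 58 to 49 bases before the start, and Jund had none of the motifs searched. These are matches of letters only, and they say nothing of binding.

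A single library stood under both genotypes: of the 3000 barcodes listed for WT male replicate 3, 2952 were listed for THY-Tau22 male replicate 4 too, while no other pair shared more than 12. Neither table entered a comparison. The 14 other libraries held 24578 barcodes with 200 to 7000 detected genes, 1121 to 2526 per library, with 755945 to 2089367 UMIs per library. Cells were clustered without the 10 genes and related early response genes and named from markers, giving 6866 microglia-like, 4759 astrocyte-like, 4621 oligodendrocyte-like, 3514 endothelial-like, 1223 neuron-like and 1107 oligodendrocyte precursor (OPC)-like cells. All markers detected for these classes, 9 to 12 per class, were highest in their own class. The names were drawn from these same markers, so that is no separate check of them. A library had as few as 26 neuron-like and 18 OPC-like cells. THY-Tau22 male replicate 3 stood apart: 27.5% of its cells fell in a cluster that was left unnamed, against 0.983% to 5.44% in the other 13 libraries. The share of UMIs from mitochondrial genes was taken without the ribosomal RNAs mt-Rnr1 and mt-Rnr2. Its median per cell was 0.351% to 0.571% in the WT male libraries and 0.889% to 1.33% in the THY-Tau22 males, without overlap. It was 0.897%, 1.23% and 0.394% in WT females and 0.606% to 0.898% in THY-Tau22 females.

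Among the 6 classes compared, microglia-like and endothelial-like cells carried the most immediate early gene mRNA. The 10 genes together made up 2.82% ± 0.441 (SD, n = 14 libraries) of the UMIs of microglia-like cells and 1.68% ± 0.372 of those of endothelial-like cells. The share was 0.780% ± 0.196 in OPC-like, 0.413% ± 0.0498 in oligodendrocyte-like, 0.242% ± 0.131 in neuron-like and 0.172% ± 0.0453 in astrocyte-like cells. Levels are given below in CPM, the UMIs of a gene over all UMIs of the cells of a class in 1 library, scaled to a total of 1000000. They are not scaled by gene length, since each molecule is counted once at its 3′ end. Values follow as mean ± SD over the 14 libraries.

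**Figure D1:**
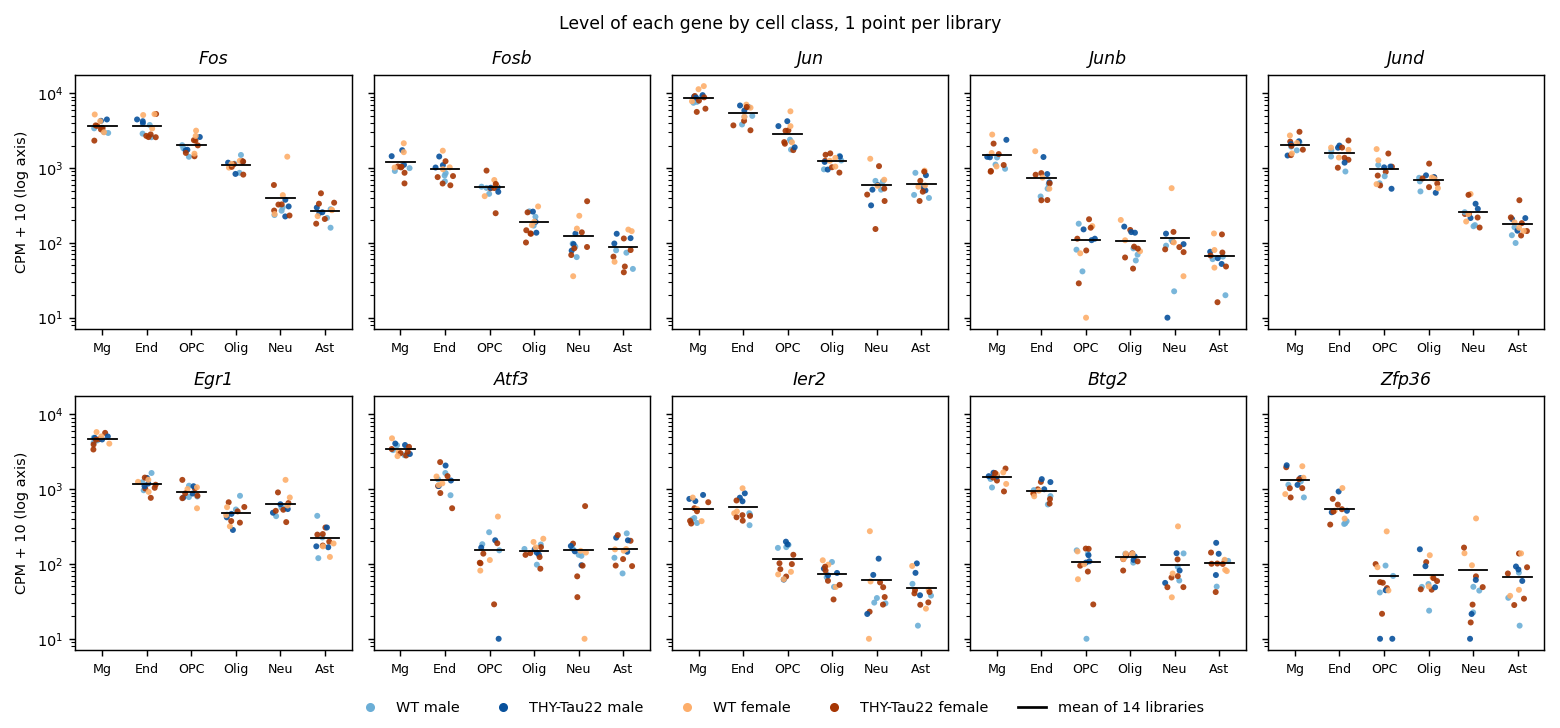
Level of each of the 10 genes by cell class (Mg microglia-like, End endothelial-like, OPC, Olig oligodendrocyte-like, Neu neuron-like, Ast astrocyte-like), as CPM + 10 on a log axis, with 1 point per library. All 10 genes were higher in microglia-like than in astrocyte-like cells in 14 of 14 libraries, and Fos and Ier2 stood at similar heights in endothelial-like and microglia-like cells.

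Among the Fos family, Fos ran from 2317 to 5192 CPM in microglia-like cells, with a median of 3431 (3592 ± 739), and from 2573 to 5273 CPM in endothelial-like cells, with a median of 3563 (3679 ± 1044). The ranges of these classes overlapped almost completely, and the classes did not pass the test of a difference (two-sided exact sign-flip permutation test over libraries, adjusted p = 0.933 over 50 pairs of neighboring classes, endothelial-like cells higher in 6 of 14 libraries). OPC-like cells followed at 2025 ± 525 CPM, oligodendrocyte-like cells at 1102 ± 186 CPM, neuron-like cells at 387 ± 310 CPM and astrocyte-like cells at 259 ± 76.5 CPM. Each of these steps passed the test, the last in 9 of 14 libraries (adjusted p = 0.0355). Fosb, the paralog of Fos, was lower in every class, at 1179 ± 405 CPM in microglia-like, 956 ± 319 in endothelial-like, 541 ± 149 in OPC-like, 182 ± 61.6 in oligodendrocyte-like, 113 ± 83.3 in neuron-like and 78.8 ± 37.3 in astrocyte-like cells. Fosb was higher in microglia-like than in endothelial-like cells in 13 of 14 libraries (exact permutation test, adjusted p = 0.00226).

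Within the Jun family, Jun was the most abundant of the 10 genes in microglia-like cells, from 5620 to 12446 CPM with a median of 8768 (8606 ± 1784). It had 5384 ± 1306 CPM in endothelial-like, 2860 ± 1139 in OPC-like, 1215 ± 224 in oligodendrocyte-like, 603 ± 188 in astrocyte-like and 592 ± 297 in neuron-like cells, and only the last pair did not differ by the test (adjusted p = 0.543). Jund, the least inducible Jun gene, descended in steps of unequal size. It had 2041 ± 455 CPM in microglia-like, 1560 ± 410 in endothelial-like and 965 ± 374 in OPC-like cells. Oligodendrocyte-like cells followed at 684 ± 169 CPM, neuron-like cells at 248 ± 91.7 CPM and astrocyte-like cells at 168 ± 66.2 CPM. Each of these 5 steps was seen in 14 of 14 libraries (exact permutation test, adjusted p = 0.000265, from the smallest p that 14 libraries can give). Junb was distributed differently. It had 1467 ± 582 CPM in microglia-like and 735 ± 378 CPM in endothelial-like cells, but 106 ± 127 in neuron-like, 98.2 ± 59.7 in OPC-like, 95.1 ± 46.2 in oligodendrocyte-like and 56.7 ± 33.4 in astrocyte-like cells. OPC-like cells thus had Jun at 2860 CPM beside Junb at 98.2 CPM.

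Egr1 and Atf3 separated microglia-like from endothelial-like cells more widely. Egr1 had 4652 ± 645 CPM in microglia-like and 1165 ± 232 CPM in endothelial-like cells, a ratio of 3.99, and its lowest microglia-like library (3380 CPM) lay above its highest endothelial-like library (1635 CPM). Egr1 also had the highest mean of the 10 genes in neuron-like cells, 625 ± 242 CPM, with 908 ± 197 in OPC-like, 476 ± 143 in oligodendrocyte-like and 211 ± 85.6 in astrocyte-like cells. Neuron-like and oligodendrocyte-like cells did not differ by the test (adjusted p = 0.0980). Atf3 had 3400 ± 583 CPM in microglia-like and 1308 ± 467 CPM in endothelial-like cells. In the 4 other classes Atf3 had means of 140 to 151 CPM, and no neighboring pair of these differed by the test (adjusted p of 0.440 to 0.909).

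The other regulators were highest in the same classes among the 6. Btg2 had 1429 ± 258 CPM in microglia-like and 929 ± 223 CPM in endothelial-like cells and means of 86.0 to 112 CPM in the 4 other classes. Zfp36 had 1296 ± 443 CPM in microglia-like and 540 ± 217 CPM in endothelial-like cells and means of 57.8 to 74.2 CPM in those 4. Ier2, a nuclear early response protein, had 562 ± 208 CPM in endothelial-like and 531 ± 173 CPM in microglia-like cells, which did not differ by the test (adjusted p = 0.478), and 108 ± 50.7 in OPC-like, 63.8 ± 23.5 in oligodendrocyte-like, 50.1 ± 67.3 in neuron-like and 38.1 ± 25.5 in astrocyte-like cells. Among these 6 classes, 8 of the 10 genes had their highest mean in microglia-like cells, and 33 of 50 neighboring pairs of classes differed.

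RNA released from broken cells enters every droplet, so the microglia markers Cx3cr1 and P2ry12 were read in the other classes. They follow the part of it that comes from microglia, but doublets, which were kept, can also carry them. Their means there were 2.41% to 4.86% of their level in microglia-like cells. In astrocyte-like cells the 10 genes had 3.81% (Junb) to 8.20% (Jund) of their own microglia-like level. Junb was above both markers in 1 of 14 libraries, Egr1 and Zfp36 in 4 and Atf3 in 6. Whether the levels of these genes in astrocyte-like cells are background was not tested. Jun, at 7.01%, was above both markers in 14 of 14 libraries. Microglia-like cells held 53.1% of the Jun UMIs and 38.7% of the Fos UMIs of the kept cells. Endothelial-like cells held 19.7% and 23.6%. RNA released from classes other than microglia was not measured. Standing above the markers, here and below, therefore does not by itself show that a class makes the gene.

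**Figure D2:**
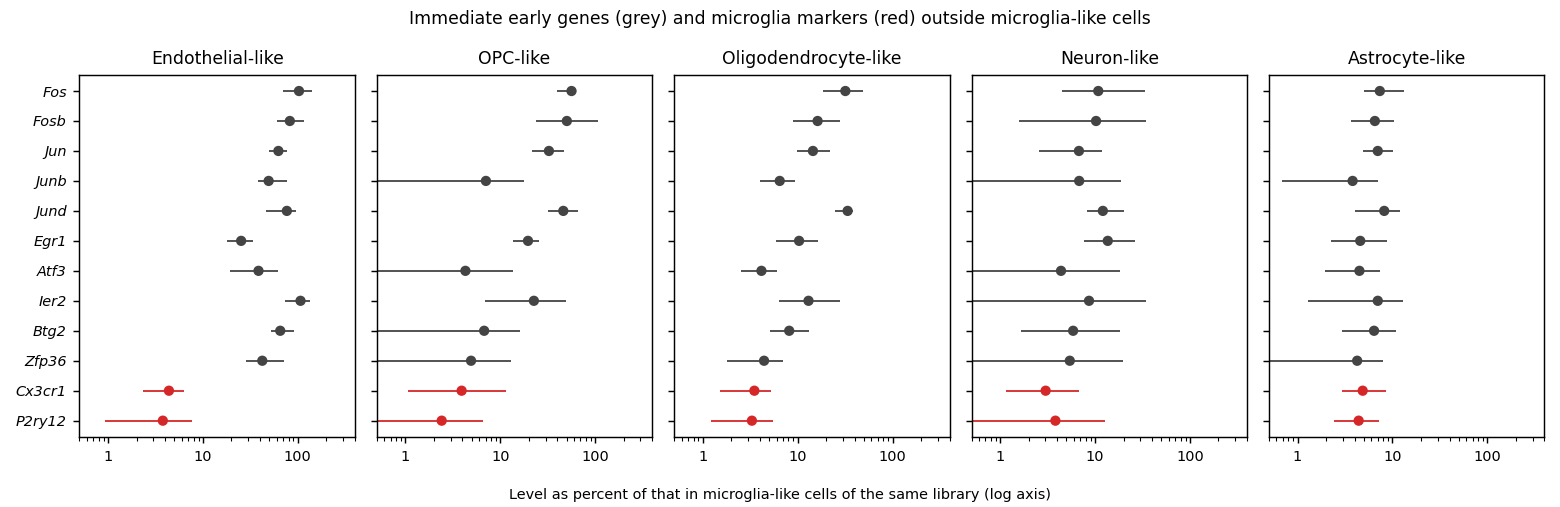
Level in each other class as a percent of the level in microglia-like cells of the same library (log axis), for the 10 genes and 2 microglia markers; points are means over 14 libraries, lines run from the lowest to the highest library and are clipped below 0.5%. All 10 genes lie above the markers in endothelial-like cells, while the means of Junb, Egr1, Atf3 and Zfp36 in astrocyte-like cells lie below that of Cx3cr1, 4.86%.

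Endothelial-like cells had 25.3% (Egr1) to 107% (Ier2) of the microglia-like level, and all 10 genes were above both markers in 14 of 14 libraries. In OPC-like cells the genes divided. Fos (56.4%), Fosb (50.3%), Jund (46.2%), Jun (32.6%) and Egr1 (19.6%) were above the markers in 14 of 14 libraries, but Zfp36 (4.92%) in 9 and Atf3 (4.29%) in 6. Oligodendrocyte-like cells showed a like division, with Jund at 33.6% and Fos at 31.8%, and with Zfp36 (4.43%) and Atf3 (4.16%) above the markers in 9 and 8 libraries. In neuron-like cells Egr1 (13.6%) and Jund (12.1%) stood highest, each above the markers in 13 of 14 libraries. Single cells could weigh heavily there: 19 of the 29 Fos UMIs of neuron-like cells of THY-Tau22 male replicate 3 came from 1 cell.

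Classes with fewer cells also carried the genes. The 10 genes made up 2.17% ± 0.391 of the UMIs of mural-like cells (900 cells in 14 libraries, the pericytes and smooth muscle of vessels), 1.74% ± 0.372 of those of macrophage-like cells (359 cells in 13 libraries) and 0.316% ± 0.114 of those of ependymal-like cells (85 cells in 4 libraries), so the means of mural-like and macrophage-like cells lay above that of endothelial-like cells. Mural-like cells had Fos at 5196 ± 1009 CPM, Jun at 5855 ± 1660 CPM and Egr1 at 2325 ± 342 CPM. Over the 9 named classes, 7 of the 10 genes had their highest mean in microglia-like cells and 3, Fos, Fosb (1296 ± 345 CPM) and Ier2 (613 ± 242 CPM), in mural-like cells. Macrophage-like cells had Fos at 2917 ± 1105 CPM, Btg2 at 1201 ± 429 CPM and Zfp36 at 984 ± 418 CPM. Mural-like cells had Btg2 at 1268 ± 335 CPM and Zfp36 at 589 ± 174 CPM. These differences between classes were not tested. A finer clustering divided microglia-like cells into a cluster of 2406 cells led by Rgs1, Selplg and P2ry13, one of 2208 cells whose leading genes included the inflammatory genes Ccl3, Ccl4 and Tnf, and one of 1994 cells (12 libraries) whose leading genes included Casp4 and Rel. In that order, Egr1 was 2934 ± 930, 5750 ± 645 and 5171 ± 874 CPM, Atf3 was 2298 ± 762, 4176 ± 619 and 3835 ± 848 CPM, and Jun was 7865 ± 2419, 8864 ± 1630 and 9494 ± 1641 CPM. The high levels of Egr1 and Atf3 were thus shared by the second and the third of these clusters. The finer clustering also held a cluster of 355 cells (10 libraries) that was left unnamed. It was led by Cd74, with Clec7a and Cst7 among its leading genes. Egr1 was 2811 ± 571 CPM there, Atf3 2714 ± 696 CPM and Jun 4564 ± 1388 CPM. These cluster levels are a description and were not tested.

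Whether genotype moved the genes was asked within each sex, in each class and in all cells, by edgeR's quasi-likelihood test on summed counts with Benjamini-Hochberg adjustment over all genes tested. To be called, a gene needed an adjusted p under 0.05 together with a change of 0.5 or more on the log2 scale in either direction. In males 0 of 64 member tests were called by edgeR, where 0.1% of all tests were, and 8 had an unadjusted p under 0.05, as had 15.6% of all tests. DESeq2 called 1, where it called 0.811% of all tests. In females 0 of 64 were called by edgeR (0.00313% of all tests), 10 had an unadjusted p under 0.05 (2.54% of all tests) and DESeq2 called 0 (0.0% of all tests). Averaged over both sexes 0 of 64 were called by edgeR (0.00939% of all tests), 2 had an unadjusted p under 0.05 (5.12% of all tests) and DESeq2 called 0 (0.00313% of all tests). The tests missing from 70 were those of Junb, Atf3, Ier2, Btg2 and Zfp36 in OPC-like and of Ier2 in neuron-like cells, where counts were too low.

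Ier2 in microglia-like cells of males came nearest to a call. WT males had 401, 383 and 343 CPM and THY-Tau22 males had 730, 682 and 827 CPM. Every THY-Tau22 library lay above every WT library, with means of 376 ± 29.9 and 746 ± 73.6 CPM (SD, n = 3 each). The highest value, 827 CPM, was that of replicate 3, the library that stood apart. The same 6 libraries were separated by their median mitochondrial share (0.351% to 0.571% in WT, 0.889% to 1.33% in THY-Tau22), and its part in this and the other male differences was not tested. The log2 fold change was 0.90 (SE 0.26, edgeR, adjusted p = 0.0882) and did not pass. Over 28 other settings it stayed between 0.64 and 1.01, with an adjusted p between 0.00592 and 0.349. It passed with DESeq2 (adjusted p = 0.0268), within the libraries of title code MB21 (edgeR, adjusted p = 0.0464), with males fitted alone (adjusted p = 0.00592), and without WT female replicate 2 (adjusted p = 0.0464) or WT female replicate 3 (adjusted p = 0.0368). The shares of all tests called were higher in these fits too, at 0.811%, 1.45%, 6.85%, 0.579% and 1.59% in that order, beside 0.1%. Averaged over both sexes the log2 fold change was 0.37 (SE 0.17, edgeR, adjusted p = 0.678). In all kept cells together Ier2 was 218, 221 and 232 CPM in WT males and 377, 354 and 415 CPM in THY-Tau22 males (log2 fold change 0.59, SE 0.26, adjusted p = 0.300). The library under both labels had 511 CPM in its WT table and 467 CPM in its THY-Tau22 table, between the groups.

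**Figure D3:**
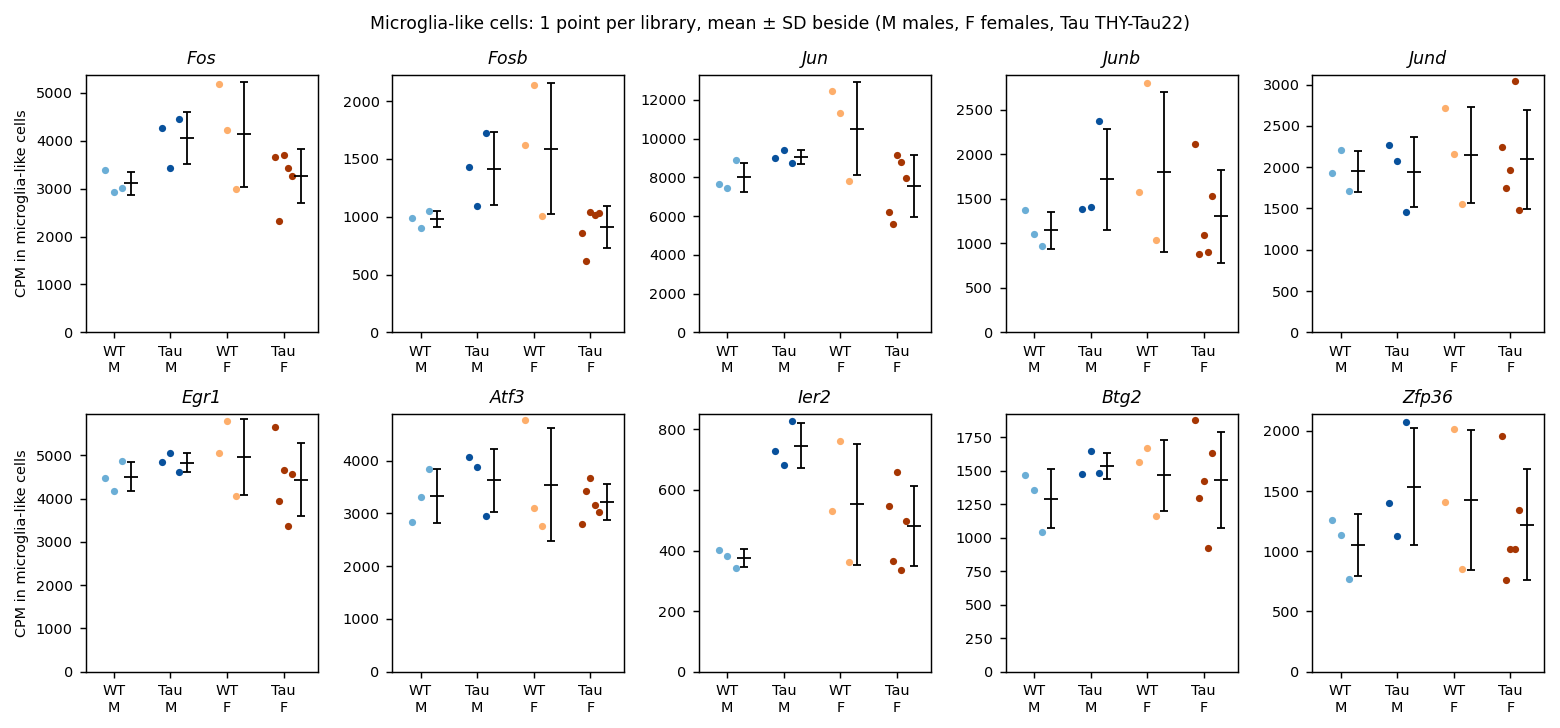
CPM of each gene in microglia-like cells, 1 point per library, with mean ± SD, for males (3 WT, 3 THY-Tau22) and females (3 WT, 5 THY-Tau22). Ier2 separates the male groups (343 to 401 against 682 to 827 CPM), and WT females spread widely, Fosb from 1007 to 2135 CPM.

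Fos in microglia-like cells was 3388, 2935 and 3020 CPM in WT males and 4268, 3437 and 4453 CPM in THY-Tau22 males, again without overlap, but its log2 fold change was 0.29 (SE 0.25, edgeR, adjusted p = 0.570). Fosb, Junb and Btg2 did not overlap either, so 5 of 10 genes stood higher in every THY-Tau22 male. Of all genes with a mean of at least 20 CPM in this class, 14.9% did. Replicate 3 had the highest Fos, Fosb (1723 CPM) and Junb (2374 CPM) of the THY-Tau22 males, and the male libraries were separated by mitochondrial share as well. The median log2 fold change of the 10 genes in this class was 0.23 in males, beside 0.01 over all genes tested, and -0.17 in females, beside -0.01.

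In females Fosb had the lowest p. WT females had 1621, 2135 and 1007 CPM of Fosb in microglia-like cells, and THY-Tau22 females had 855, 614, 1040, 1011 and 1030 CPM. The first 2 WT libraries were above all THY-Tau22 libraries and the third lay among them. The mitochondrial share divided the WT females in the same way (0.897% and 1.23% against 0.394%), and its part was not tested. The log2 fold change was -0.77 (SE 0.22, edgeR, adjusted p = 0.999). Jun showed the same arrangement, with 12446, 11319 and 7803 CPM in WT females and 5620 to 9180 CPM in THY-Tau22 females (log2 fold change -0.46, SE 0.23, adjusted p = 0.999). The third WT female and the fifth THY-Tau22 female carry another title code (MB22) than the 12 other libraries (MB21), and what the code stands for is not given in the sources used here. Within MB21 the log2 fold change of Fosb was -1.01 (SE 0.24, adjusted p = 0.231), and with the title code as a term in the fit of all 14 libraries it was -0.76 (SE 0.22, adjusted p = 0.993). In all kept cells together Fosb was 704, 1079 and 547 CPM in WT females and 346 to 690 CPM in THY-Tau22 females (log2 fold change -0.54, SE 0.21, edgeR, adjusted p = 1), and -0.33 without WT female replicate 2.

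The sexes were compared by the interaction, the log2 fold change in males minus that in females. edgeR called 0 of 64 member tests (0.0156% of all tests), 17 had an unadjusted p under 0.05 (13.6% of all tests), and DESeq2 called 1 (0.307% of all tests), Fosb in microglia-like cells. There the interaction was 1.21 for Fosb (SE 0.34, edgeR, adjusted p = 0.165), 1.05 for Ier2 (SE 0.35, adjusted p = 0.199) and 0.90 for Junb (SE 0.42, adjusted p = 0.326), the last 0.49 without WT female replicate 2. In all kept cells together it was 0.82 for Fosb (SE 0.32, adjusted p = 0.321) and 0.88 for Ier2 (SE 0.35, adjusted p = 0.327), the latter 0.53 without that library. The count of calls depended on single WT females. Without WT female replicate 3 it was 7, where 8.91% of all tests were called in place of 0.0156%, namely Fosb and Ier2 in microglia-like and in astrocyte-like cells, Junb and Ier2 in endothelial-like cells and Egr1 in oligodendrocyte-like cells, and the interaction of Fosb in microglia-like cells was 1.40 (adjusted p = 0.00841). Without WT female replicate 2 it was 0 (0.0% of all tests), and that interaction was 0.98 (adjusted p = 0.759). Within title code MB21 it was 5 (6.12% of all tests). With the title code as a term in the fit of all 14 libraries it was 0 (0.892% of all tests), and the counts for males (0.652%), for females (0.00855%) and for the average of the sexes (0.0142%) were 0 as well.

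**Figure D4:**
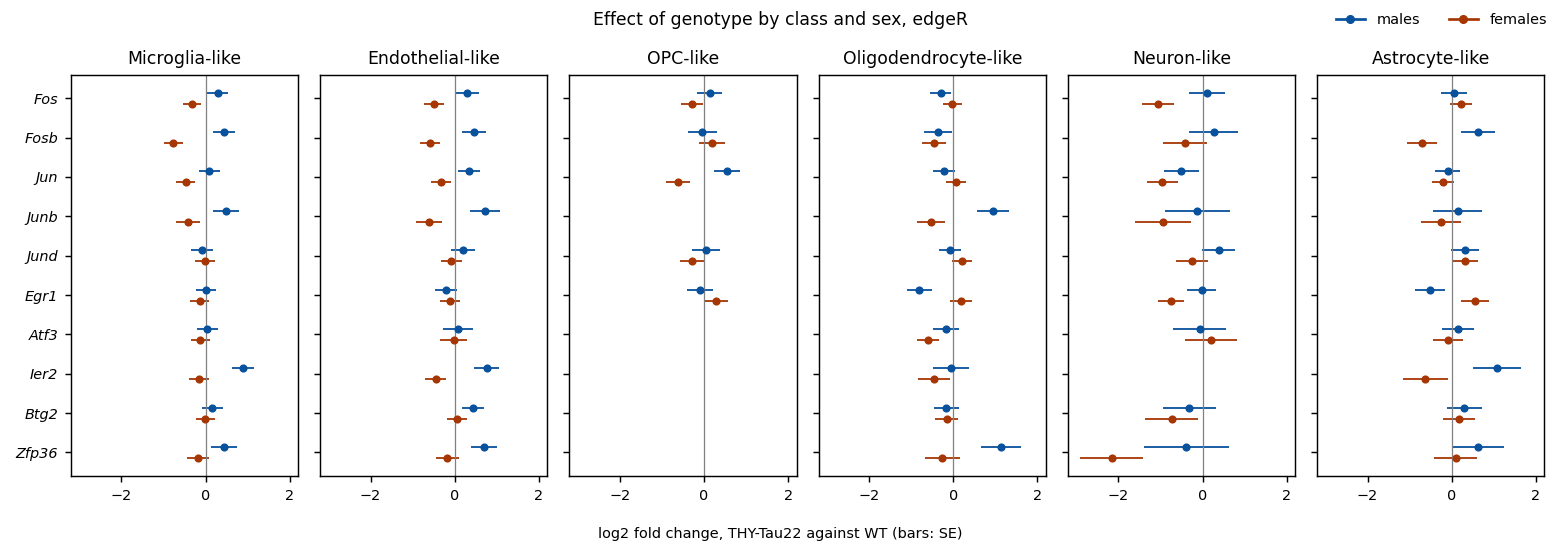
Log2 fold change of THY-Tau22 against WT for each gene and class in males and in females, as edgeR estimates with SE bars; genes that did not pass the count filter have no point. In microglia-like cells 9 of 10 estimates are above 0 in males and 0 of 10 in females, in endothelial-like cells 9 and 1 of 10, and none was called.

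Endothelial-like cells resembled microglia-like cells in these contrasts. Ier2 was 320, 446 and 467 CPM in WT males and 759, 679 and 870 CPM in THY-Tau22 males, without overlap (log2 fold change 0.75, SE 0.29, edgeR, adjusted p = 0.236), and it passed with males fitted alone (adjusted p = 0.0330). Junb was 521, 596 and 407 CPM in WT males and 822, 634 and 1395 CPM in THY-Tau22 males. Its log2 fold change of 0.73 (SE 0.36, adjusted p = 0.313) was 0.35 without THY-Tau22 male replicate 3, the highest of its group. Zfp36 was 363, 333 and 340 CPM in WT males and 504, 481 and 920 CPM in THY-Tau22 males (log2 fold change 0.70, SE 0.31, adjusted p = 0.283), and the change was 0.34 without the same library. Fosb was 1012, 1696 and 955 CPM in WT females and 578 to 1225 CPM in THY-Tau22 females (log2 fold change -0.59, SE 0.24, adjusted p = 1), and -0.33 without WT female replicate 2. In all, 7 of 10 genes stood higher in every THY-Tau22 male, in the libraries that the mitochondrial share separated too. Of all genes with a mean of at least 20 CPM in this class, 16.0% did. The interaction had an unadjusted p under 0.05 for 5 genes, Junb (1.34), Ier2 (1.20), Fosb (1.04), Zfp36 (0.88) and Fos (0.79), with adjusted p of 0.221 to 0.346 (edgeR), and for 13.6% of all genes in this class. Without WT female replicate 2 it was 0.74 for Junb and 0.41 for Zfp36, and without THY-Tau22 male replicate 3 it was 0.52 for Zfp36.

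In oligodendrocyte-like cells 3 genes had an unadjusted p under 0.05 in males, where 17.5% of all genes did, and their estimates differed in sign. Junb was 59.6, 74.4 and 48.2 CPM in WT males and 127, 129 and 155 CPM in THY-Tau22 males, on 7 to 40 UMIs per library and without overlap (log2 fold change 0.94, SE 0.38, edgeR, adjusted p = 0.209, and 0.52 to 1.47 over 28 other settings). It was the only 1 of 10 genes in this class whose male groups did not overlap. Of all genes with a mean of at least 20 CPM in this class, 18.6% stood higher in every THY-Tau22 male. Zfp36 was 43.9, 39.4 and 13.8 CPM in WT males and 83.4, 38.8 and 147 CPM in THY-Tau22 males, on 2 to 38 UMIs per library and with overlap (log2 fold change 1.14, SE 0.47, adjusted p = 0.215), and the change was 0.64 without THY-Tau22 male replicate 3. Egr1 was 446, 525 and 805 CPM in WT males and 410, 457 and 275 CPM in THY-Tau22 males, with overlap (log2 fold change -0.80, SE 0.30, adjusted p = 0.177, and -0.34 with classes set cell by cell from marker UMIs), and it passed with males fitted alone (adjusted p = 0.0386, with 6.85% of all tests called). Atf3 was 208, 187 and 157 CPM in WT females and 76.5 to 158 CPM in THY-Tau22 females (log2 fold change -0.60, SE 0.27, edgeR, adjusted p = 0.998), and -0.23 with doublets removed. The interaction had an unadjusted p under 0.05 for Junb (1.46), Zfp36 (1.39) and Egr1 (-0.99), with adjusted p of 0.162 to 0.268 (edgeR), and for 16.9% of all genes in this class. That of Zfp36 was 0.89 without THY-Tau22 male replicate 3 and 0.89 without WT female replicate 2.

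In neuron-like cells, where the promoter of the transgene is active, Fos was 259, 286 and 225 CPM in WT males and 215, 367 and 297 CPM in THY-Tau22 males (log2 fold change 0.10, SE 0.43, edgeR, adjusted p = 0.976). WT females had 233, 1409 and 425 CPM, and THY-Tau22 females had 315, 260, 317, 584 and 222 CPM. The value of 1409 CPM, in WT female replicate 2, came from 32 UMIs in 26 cells. The log2 fold change in females was -1.06 (SE 0.38, adjusted p = 1), and -0.40 without that library. The same library was the highest for Jun, Egr1 and Zfp36 in neuron-like cells, with 1321, 1321 and 396 CPM. Their log2 fold changes in females were -0.96, -0.75 and -2.16 (adjusted p = 1 for each, edgeR), and -0.70, -0.53 and -1.53 without that library. Zfp36 rested on 1 to 16 UMIs per female library in this class, and it was above both microglia markers in 6 of 14 libraries. With classes set cell by cell from marker UMIs the changes of Jun and Egr1 were -0.31 and -0.44. Averaged over both sexes the change of Jun was -0.73 (SE 0.28, adjusted p = 0.831), and -0.0083 with classes set cell by cell. In OPC-like cells Jun was 5723, 3622 and 2199 CPM in WT females and 1728 to 3181 CPM in THY-Tau22 females, with overlap (log2 fold change -0.62, SE 0.28, adjusted p = 0.997). The highest value, in WT female replicate 1, came from 167 UMIs, and the change was -0.20 without that library. The interaction of Jun there was 1.17 (SE 0.42, edgeR, adjusted p = 0.643), and 0.71 without it. In astrocyte-like cells the interaction had an unadjusted p under 0.05 for Ier2 (1.70), Fosb (1.34) and Egr1 (-1.07), with adjusted p of 0.200 to 0.243 (edgeR), and for 18.2% of all genes in this class. That of Ier2 ran from 0.89 (without WT female replicate 2) to 2.91 over the other settings and that of Fosb from 1.08 to 2.30. The sign of the Egr1 value turned under 3 other settings, with doublets removed and with 2 other ways of assigning cells to classes. Counts in this class were low, at 1 to 21 UMIs per library for Ier2 and 5 to 28 for Fosb. Ier2 was above both microglia markers there in 9 of 14 libraries, and Egr1 in 4.

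Related genes were read from 4 further lists. Of 20 other inducible transcription factors, 11 were tested in microglia-like cells and 0 were called in males by edgeR, with 6 at an unadjusted p under 0.05 and a median log2 fold change of 0.70, where 0.552% of all genes in this class were called and 17.2% had such a p. In females 0 were called, 2 had an unadjusted p under 0.05 (2.9% of all genes) and the median was -0.16. Of this list Klf6 had 1436 ± 237 CPM in microglia-like and 1218 ± 183 CPM in endothelial-like cells, whereas Klf4 had 908 ± 304 and 2496 ± 445 CPM and Klf2, a flow-responsive factor of endothelium, 779 ± 378 and 2088 ± 994 CPM. Of 24 feedback and other early response genes, 21 were tested in microglia-like cells, 0 were called in males, 7 had an unadjusted p under 0.05 and the median was 0.48, beside -0.01 in females, where 0 were called and 0 had such a p. Nfkbia, the inhibitor of NF-kappaB that NF-kappaB itself induces, had 3560 ± 698 CPM in microglia-like and 1486 ± 388 CPM in endothelial-like cells.

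Of 16 upstream kinases and factors, 12 were tested in microglia-like cells with 0 called in either sex and medians of -0.04 in males and -0.09 in females. Of 12 heat shock chaperones, 11 were tested there with 0 called and medians of 0.03 and 0.15. Of the 12 chaperones, 4 had their highest mean in endothelial-like, 3 in microglia-like, 3 in oligodendrocyte-like, 1 in OPC-like and 1 in neuron-like cells among the 6 classes. Hsp90ab1, one of the 3 most abundant, had 5217 ± 980 CPM in oligodendrocyte-like, 2725 ± 623 in microglia-like and 1463 ± 297 in astrocyte-like cells. Their sum in microglia-like cells was 16219 CPM in THY-Tau22 female replicate 4 and 6675 to 9308 CPM in the 13 others, whereas the 10 immediate early genes summed to 26003 CPM in that library, within the range of 20988 to 36896 CPM. Over all classes and contrasts, the single call in these lists was Klf2 for the interaction in oligodendrocyte-like cells, whose values are given in the closing section.

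Which genes varied together was asked in microglia-like cells, where counts were highest, by correlating log2(CPM + 10) of each gene with that of Fos over 14 libraries (9 relations, two-sided permutation tests, 100000 resamples). Fosb followed Fos most closely, with Pearson's r = 0.853 (permutation p = 0.00024, adjusted p = 0.00216) and Spearman's rho = 0.758 (permutation p = 0.00222, adjusted p = 0.00972). Jun had r = 0.758 (permutation p = 0.0019, adjusted p = 0.00855) and rho = 0.679 (permutation p = 0.00912, adjusted p = 0.0164). Zfp36 had r = 0.725 (permutation p = 0.00318, adjusted p = 0.00954) and rho = 0.750 (permutation p = 0.00324, adjusted p = 0.00972). Ier2 had r = 0.702 (permutation p = 0.00433, adjusted p = 0.00974) and rho = 0.754 (permutation p = 0.00244, adjusted p = 0.00972), and Junb had r = 0.669 (permutation p = 0.00881, adjusted p = 0.0159) and rho = 0.697 (permutation p = 0.00766, adjusted p = 0.0164). Without WT female replicate 1 and THY-Tau22 female replicate 2, the libraries farthest from the median of Fos, r was 0.777 for Fosb, 0.764 for Zfp36, 0.863 for Ier2 and 0.711 for Junb, but 0.424 for Jun, whose relation rested on them.

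The 4 other genes did not pass by Pearson's r. Egr1 had r = 0.523 (permutation p = 0.0554, adjusted p = 0.0831) and rho = 0.635 (permutation p = 0.0169, adjusted p = 0.0253). Btg2 had r = 0.421 (permutation p = 0.135, adjusted p = 0.173) and rho = 0.552 (permutation p = 0.0437, adjusted p = 0.0562). Jund had r = 0.345 (permutation p = 0.227, adjusted p = 0.254) and rho = 0.341 (permutation p = 0.232, adjusted p = 0.261). Atf3 had r = 0.329 (permutation p = 0.254, adjusted p = 0.254) and rho = 0.266 (permutation p = 0.360, adjusted p = 0.360). Without the same 2 libraries r was 0.430 for Egr1, 0.439 for Btg2, 0.0758 for Jund and 0.0769 for Atf3.

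The relations with Fos were also read within 1 title code and with the group means removed, and the change in r was not tested. Within the 12 libraries of title code MB21, r with Fos was 0.856 for Fosb, 0.755 for Jun, 0.720 for Zfp36 and 0.684 for Ier2. With the mean of each group removed, r was 0.796 for Fosb, 0.679 for Jun, 0.676 for Zfp36 and 0.617 for Ier2, which passed (permutation tests, adjusted p of 0.00909 to 0.0416), and Junb no longer did (adjusted p = 0.0773). These permutations did not allow for the group means taken out, so their p values are too small and the passes are not firm. By Spearman's rho none of the 9 relations passed then (permutation tests, lowest adjusted p = 0.119). Without the 2 libraries then farthest from the median, r was 0.466 for Fosb, 0.204 for Jun, 0.399 for Zfp36 and 0.300 for Ier2. Among the other pairs, given as a description, Junb and Zfp36 had r = 0.947 while Junb and Jun had r = 0.327. Jund and Atf3 had r between -0.208 and 0.535 with all other genes.

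**Figure D5:**
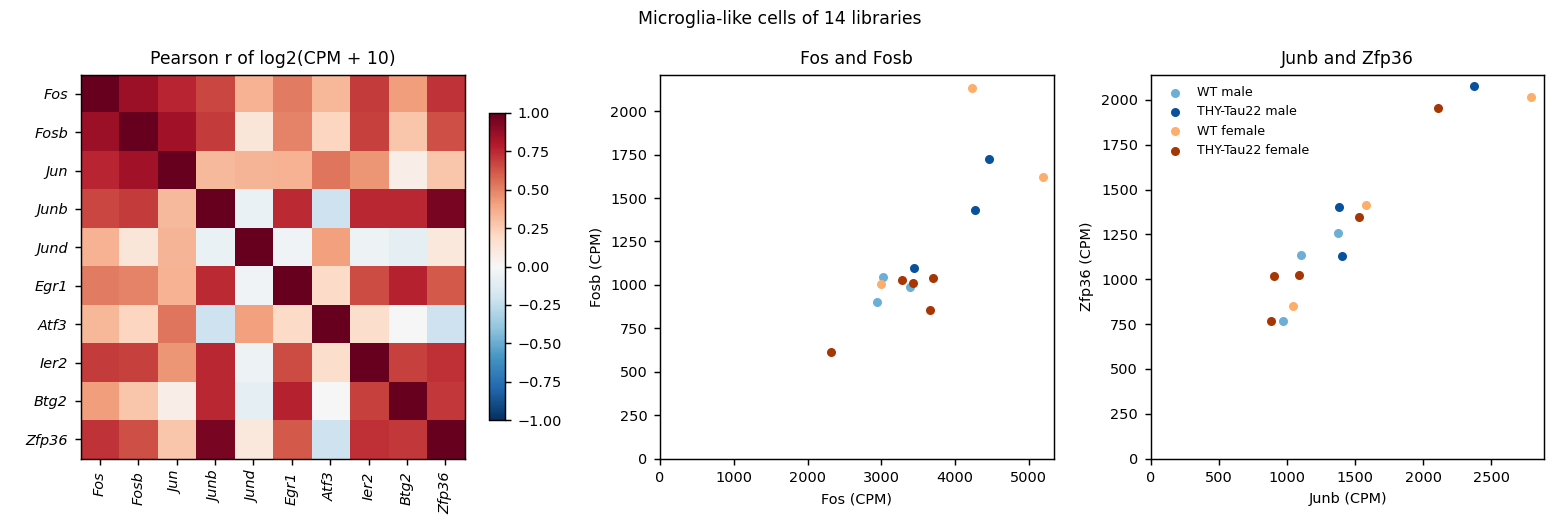
Pearson's r of log2(CPM + 10) between all pairs of the 10 genes in microglia-like cells over 14 libraries, with plots of Fos against Fosb and of Junb against Zfp36, 1 point per library. Junb, Zfp36, Ier2, Btg2 and Egr1 have r of 0.610 or more with each other, and Jund and Atf3 lie outside that block.

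The genes whose pattern over classes and libraries was most like that of the 10 were found by Spearman's rho over 84 values (6 classes by 14 libraries) among 7246 genes. The highest medians over the 10 genes were those of H3f3b (0.821), a histone variant made outside S phase, H2-D1 (0.811), a class I histocompatibility gene, Klf6 (0.810), Ier3 (0.801), an early response gene, and Rps20 (0.799), a ribosomal protein gene. The 10 genes' own median rho with each other ran from 0.718 (Zfp36) to 0.877 (Fos). In microglia-like cells alone, over 14 libraries and among 5872 genes, Gna12 (0.787), Gm12396 (0.771), Ckb (0.771), Cct2 (0.747) and Ptges3 (0.743) had the highest medians. The values share libraries and the classes differ in depth, so these coefficients are descriptions.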

How the data were processed

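Single-cell tables of 16 libraries of mouse neocortex cells were used. The authors deposited them as gene UMI counts per barcode, 3000 barcodes each, after mapping to mm10 per the submitters' processing notes. The aligner is not given in the sources used here.

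Barcodes with 200 to 7000 detected genes were kept. All 16 tables were clustered together in scanpy 1.11.5 (2500 variable genes without the 10 members, the 2 lists of other early response genes and mitochondrial genes, 19 principal components, Leiden resolution 0.5, leidenalg 0.10.2). Clusters were named from markers. A cluster with over 40% of its cells from 1 library was left unnamed, a rule made after seeing the data. Doublets (5.62% of cells) were marked and kept, and removed as an alternative. Counts were summed per library and class and tested in edgeR 4.0.16 with all 14 libraries in 1 fit (sex and genotype as 4 groups, TMM factors, filter on low counts). DESeq2 1.42.0 and a fit with the title code as a term, the latter chosen after seeing the data, were alternatives. Differences between classes and correlations were tested by permutation in scipy 1.17.1. The edgeR step was tested on simulated data.

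All members are named. Fold changes of single members are given where the unadjusted p was under 0.05 or as examples, and other lists by counts, called genes and up to 3 of their most abundant genes. The 10 genes, the lists and the rules were chosen with earlier results of these data known. Intervals between libraries rest on 3 or 5 mice per group, and depth per library was 1041675 to 2237505 UMIs before filtering.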

Additional observations from a re-analysis of the deposited data

Results flagged for a closer look

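Among THY-Tau22 females, the only group of 5 libraries, 5 of 70 sets of values held a library far from the others by Dixon's test, where chance gives about 1 in 20. In endothelial-like cells, replicate 3 had 5273 CPM of Fos (2573 to 2806 in the other 4) and 695 CPM of Ier2 (369 to 439). In neuron-like cells, replicate 4 had 584 CPM of Fos (222 to 317), 350 CPM of Fosb (58.8 to 128) and 584 CPM of Atf3 (26.0 to 177). These neuron-like values of replicate 4 rest on only 15, 9 and 15 UMIs.

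Klf2 in oligodendrocyte-like cells differed between the sexes in its genotype effect, with an interaction of 3.06 on the log2 scale (SE 0.64, edgeR's quasi-likelihood test, adjusted p = 0.0308). WT males had 37.7, 21.9 and 13.8 CPM, THY-Tau22 males 83.4, 86.3 and 132 CPM, WT females 67.3, 154 and 43.7 CPM, and THY-Tau22 females 46.3, 5.89, 47.8, 24.3 and 27.3 CPM. The male groups did not overlap, and the female groups did. These values rest on 1 to 34 UMIs per library. Klf2 had 2088 CPM in endothelial-like cells, and the part of RNA from those cells was not tested.

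Barcodes with fewer than 200 genes, used in no comparison, also held the 10 genes, at a summed mean of 8184 CPM. By gene they held 58.4% (Ier2) to 68.1% (Jun) of the level in the kept cells of all classes together.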

How the results depend on the processing

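Calls of members in males, 0 in the reported fit, became 1 with DESeq2 (0.811% of all tests called), 1 within title code MB21 (1.45%) and 3 with each sex fitted alone (6.85%; Ier2 in microglia-like and endothelial-like cells, Egr1 in oligodendrocyte-like cells). Leaving out 1 library gave 0 to 1, with 1 without WT female replicate 2 (0.579%) or WT female replicate 3 (1.59%). Calls in females and averaged over both sexes were 0 under every setting run, leaving out 1 library included (0 to 0). Calls for the interaction, 0 in the reported fit, became 1 with DESeq2 (0.307%) and 5 within MB21 (6.12%), and 0 to 7 with 1 library left out, the 7 without WT female replicate 3 (8.91%). With the title code as a term, chosen after seeing the data, they were 0 in each of the 4 contrasts. The count of genes highest in microglia-like cells was 8 (8 to 9 with 1 library left out), that of differing neighboring classes 33 (30 to 33) and that of genes varying with Fos 5 (5 to 6). Of 1012 values of 37 single tests over 28 settings, 989 kept direction and side of the threshold, 20 newly passed it and 3 turned sign. The 3 were the Egr1 interaction in astrocyte-like cells, -1.07 as reported, which was 0.30 with doublets removed, 0.24 with classes set cell by cell from marker UMIs, and 0.19 with the one-library cluster counted as astrocyte-like, an alternative chosen after seeing the data. The cause was not tested. No paired analysis was possible because the numbers of the replicates follow accession order. The titles also hold a TAO number and an S number, some of them shared by libraries of different sex or genotype. What these stand for is not given in the sources used here, and they were not used as blocks. Low counts limit OPC-like and neuron-like cells most.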
